A study of Mus musculus with 2 samples.

Results

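The immunity-related GTPases (IRGs) examined here were *Irgm1*, *Irgm2*, *Igtp*, *Iigp1*, *Ifi47*, *Tgtp1*, *Tgtp2* and *Gm4951*, chosen by gene symbol as the members of this interferon-inducible family of the mouse. They were 8 of the 31053 genes in the count matrices of 2 single-cell RNA sequencing libraries, and they gave 9888 of the 48055991 unique molecular identifiers (UMIs, each standing for 1 captured RNA molecule) in the cells kept. Both libraries held leukocytes sorted as CD45+ from pooled tumors that grew for 4 days in C57BL/6 hosts aged 8 weeks. The tumors came from melanoma cells without cyclooxygenase (COX, encoded by *Ptgs1* and *Ptgs2*), the enzyme that makes prostaglandin precursors. The series title and methods name these cells *Ptgs*-/- although the genotype label of both libraries reads wildtype tumor cells. No antibody is listed for the hosts of the control library. Those of the NK cell-depleted library received 200 µg anti-NK1.1 and 30 µg anti-asialo GM1 on days 0 and 2, counted from the injection of tumor cells. Both loads carried a small spike of parental melanoma cells. With 1 library of pooled tumors per group, the differences between groups below compare 2 libraries, carry no p-value, and cannot be told apart from differences between the pools or the preparations. The intervals given are at 95% and reflect counting error alone.

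IRG proteins are GTPases that interferon-γ (IFN-γ), the main cytokine of activated NK and T cells, induces. They are best known for loading onto the vacuoles in which parasites and bacteria hide inside infected mouse cells, and for breaking those vacuoles open together with guanylate-binding proteins (GBPs) and the autophagy conjugation machinery. The family has a pair of branches. The GMS proteins Irgm1, Irgm2 and Irgm3 (encoded by *Igtp*) sit on the cell's own membranes and hold the others inactive there. The GKS proteins Irga6 (*Iigp1*), Irgd (*Ifi47*) and Irgb6 (*Tgtp1* and *Tgtp2*) are the effectors that attack the vacuole, and *Gm4951* is placed here with this branch.

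The gene models of 6 members, from GENCODE vM21 on mm10, lie on chromosome 11 in neighboring groups and are protein coding. *Irgm1* spans chr11:48861968-48871683 on the minus strand. *Tgtp1* (chr11:48985327-48994172, minus strand), *Tgtp2* (chr11:49057194-49064206, minus strand) and *Ifi47* (chr11:49076587-49096974, plus strand) follow it. *Igtp* (chr11:58199556-58207591) and *Irgm2* (chr11:58199618-58222782) overlap on the plus strand, and 162 exonic bases belong to both. Reads at the 3′ end decide which gene is counted. Of all 50-base words in the last 500 bases of its transcripts, *Tgtp1* shared 80.8% and *Tgtp2* 73.7% with another gene, mostly with each other. Reads from these paralogs, and from *Gm12185*, could therefore be split or lost in counting, and the values of *Tgtp1* and *Tgtp2* are uncertain. *Ifi47* shared 4.54% of its words, all with *Olfr56*, *Irgm1* shared 1.99%, and *Irgm2*, *Igtp*, *Iigp1* and *Gm4951* shared none.

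Interferon signals reach a gene through transcription factors that bind near its start, at γ-activated sites and interferon-stimulated response elements. The window from 250 bases before to 50 after the RefSeq start (GRCm38.p6) was available for 6 members and was searched on both strands for the letters GAAANNGAAA, the core of an interferon-stimulated response element (here ISRE), and TTCNNNGAA, the core of a γ-activated site (here GAS). The ISRE-type letters were in the windows of 5 of the 6 members and in 3.44% of all 32851 windows. The GAS-type letters were in 4 of the 6 and in 8.30% of all. In *Irgm2*, *Igtp*, *Tgtp1* and *Tgtp2* the GAS-type match began 11 bases before the ISRE-type match on the same strand. This spacing occurred in 5 windows of the table, or 0.0152%, and the fifth belonged to *Gm12185*, another gene of the family. Only the spacing shown by these members was counted over all windows, and their stretches resemble one another. Its rarity is therefore a description and no independent support. The 61 bases around these matches are shown 5′ to 3′ on the strand of the gene, with the matched letters in capitals, because they show what the regulator and effector genes share ahead of their starts.
Irgm1, chr11:48871415-48871475, minus strand: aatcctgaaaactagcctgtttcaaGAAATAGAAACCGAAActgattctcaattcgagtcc
Irgm2, chr11:58214882-58214942, plus strand: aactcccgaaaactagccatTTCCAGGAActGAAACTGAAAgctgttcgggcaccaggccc
Igtp, chr11:58199491-58199551, plus strand: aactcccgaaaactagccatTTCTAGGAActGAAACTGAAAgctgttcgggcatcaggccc
Tgtp1, chr11:48992294-48992354, minus strand: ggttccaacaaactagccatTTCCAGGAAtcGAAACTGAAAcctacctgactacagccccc
Tgtp2, chr11:49064253-49064313, minus strand: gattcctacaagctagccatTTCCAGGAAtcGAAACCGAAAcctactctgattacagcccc

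In the GENCODE models the stretch of *Irgm1* reaches into its first exon, those of *Irgm2* and *Tgtp1* lie in introns of their longest models, and those of *Igtp* and *Tgtp2* lie upstream of the gene. The *Irgm2* and *Igtp* stretches were identical at 59 of 61 bases, and those of *Tgtp1* and *Tgtp2* at 47. Between a regulator and an effector of these 4 genes, 39 to 43 bases were identical. *Irgm1* had 2 overlapping ISRE-type matches, no GAS-type match, and 29 to 36 bases in common with the others. The window of *Ifi47* held neither set of letters. A match of letters is a description of the sequence and not a measured binding site.

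The cells kept were 5292 of 6115 in the control library (24810009 UMIs, median 4170 per cell) and 4506 of 5536 in the NK cell-depleted library (23245982 UMIs, median 4893). A kept cell had 500 to 15000 UMIs and 200 to 4000 genes, and no more than 10% of its UMIs were mitochondrial. The libraries shared 5 kept barcodes. Clusters, built without the family and a chosen set of other interferon genes, were named from marker lists. Interferon-induced genes outside that set were not left out. The monocyte/macrophage-like class held 2690 control and 2667 NK cell-depleted cells in 7 clusters. NK-like cells numbered 544 in the control, and 1 was left after NK cell depletion. The neutrophil-like (363 and 459 cells), T-like (285 and 221) and conventional dendritic cell (DC)-like classes (232 and 323) were the next in size.

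Family members were read most strongly in T-like, monocyte/macrophage-like and neutrophil-like cells. In the control library the 8 genes summed to 385 counts per 1000000 UMIs (CPM) in T-like cells, 259 in monocyte/macrophage-like cells, 251 in neutrophil-like cells, 190 in NK-like cells and 166 in conventional DC-like cells. T-like cells stood above monocyte/macrophage-like cells by 1.48-fold (1.30 to 1.69), and neutrophil-like above NK-like cells by 1.32-fold (1.05 to 1.66), whereas the other neighbors in this order had intervals that included 1. Migratory DC-like (122 CPM), B-like (115) and eosinophil-like cells (92.5) came last. In the NK cell-depleted library T-like cells, at 265 CPM, did not stand apart from monocyte/macrophage-like cells at 257. Neutrophil-like cells followed at 178, which was 1.44-fold (1.19 to 1.76) below the latter. The lowest classes were conventional DC-like (168), B-like (100 from 38 cells), eosinophil-like (86.9) and migratory DC-like cells (83.8).

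**Figure D1:**
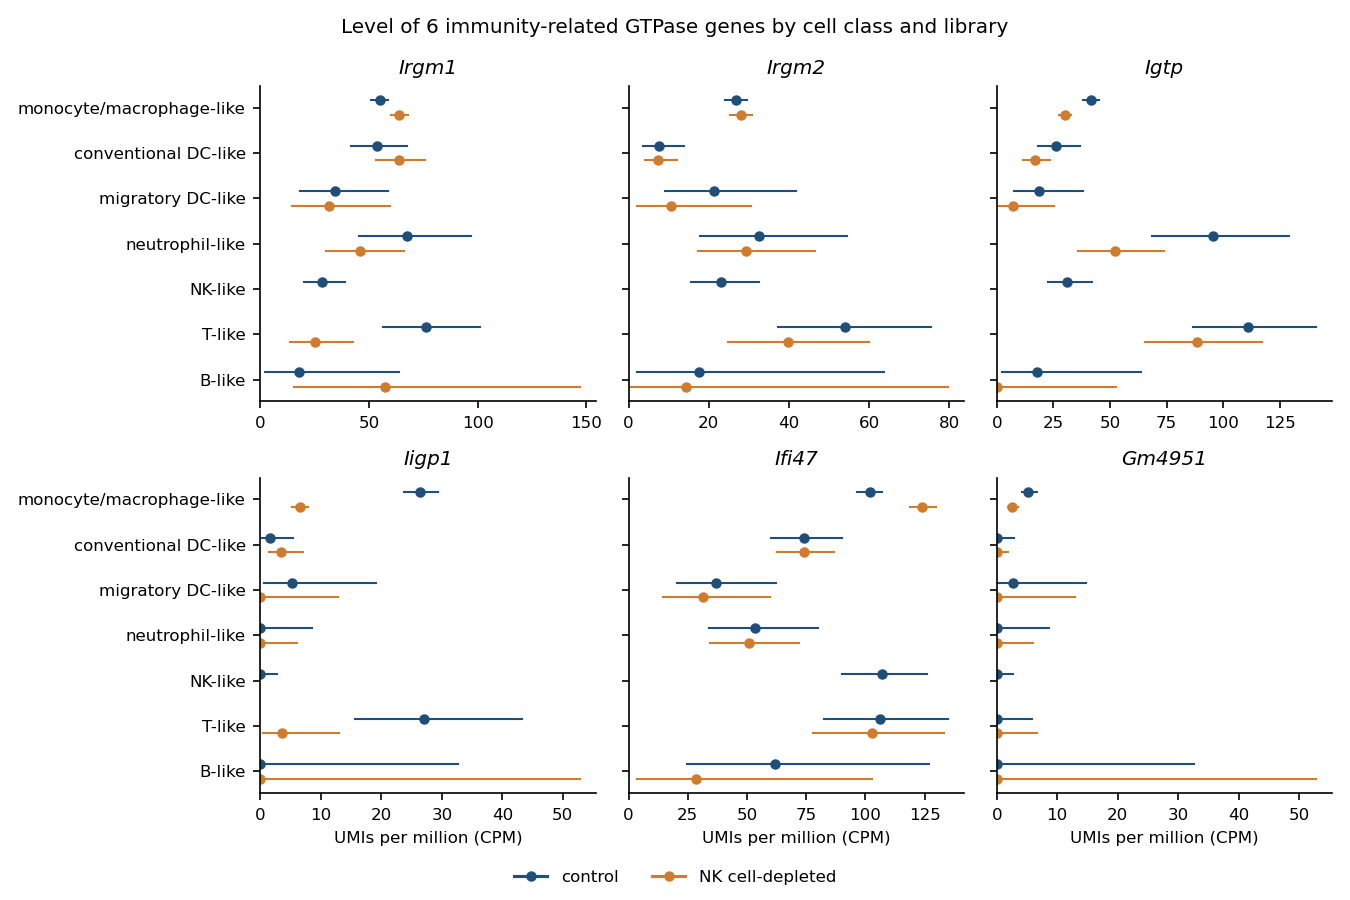
Level of 6 members (CPM) in the main cell classes of the control and NK cell-depleted libraries, with bars for 95% counting intervals. *Iigp1* stood at 26.4 in control and 6.51 in NK cell-depleted monocyte/macrophage-like cells, while *Ifi47* stood at 102 and 124.

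The regulators were read in every large leukocyte class, at levels that differed between classes. *Igtp* was highest in T-like and neutrophil-like cells. In the control library it reached 111 CPM in T-like and 95.3 in neutrophil-like cells, and the latter was 2.29-fold (1.63 to 3.15) above the 41.6 CPM of monocyte/macrophage-like cells. The NK cell-depleted library had the same order, with 88.4, 52.3 and 30.0 CPM, each 1.69-fold (1.06 to 2.73) and 1.74-fold (1.18 to 2.49) above the next. NK-like cells of the control library had 42 UMIs of *Igtp* (31.2 CPM), 38 of *Irgm1* (28.2 CPM) and 31 of *Irgm2* (23.0 CPM).

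Among the effectors, *Ifi47* was broad and *Iigp1* and *Gm4951* were narrow. *Ifi47* gave 1991 UMIs over all control cells and 2254 over all NK cell-depleted cells, more than any other member, and stood at 107 CPM (90.1 to 126; 144 UMIs) in NK-like cells. *Iigp1* gave 417 and 110 UMIs. Of these, 368 and 97 lay in monocyte/macrophage-like cells, and its control levels in T-like (27.0 CPM) and monocyte/macrophage-like cells (26.4 CPM) did not differ beyond counting error. No UMI of *Iigp1* or *Gm4951* was found in NK-like cells, where 3 counts would be 2.23 CPM, nor in neutrophil-like cells of either library, where 3 counts would be 6.97 and 4.90 CPM. *Gm4951* gave 80 and 39 UMIs, 73 and 38 of them in monocyte/macrophage-like cells. *Tgtp2* gave 54 and 38 UMIs and *Tgtp1* gave 7 and 1, of which 5 control UMIs were in T-like cells. *Tgtp1* was too low for a ratio in any class.

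In single cells the family was sparse. At least 1 UMI of any member was found in 43.9% of control and 50.3% of NK cell-depleted monocyte/macrophage-like cells, and in 28.5% and 31.8% once each cell was thinned to 2000 UMIs, which kept 2477 and 2486 cells. The cluster led by *Cyr61*, *Prkg2* and *Cavin2*, low in the leukocyte gene *Ptprc*, served as the background. Thinned in the same way, 0 of its 22 control cells and 2.70% of its 37 NK cell-depleted cells held a member. Free RNA in monocyte/macrophage-like cells, estimated from B and T cell transcripts found there, was 7.97% of the mean level of the control library and 3.71% of that of the NK cell-depleted library. At that rate it would give 16.3 of the 259 CPM and 7.67 of the 257 CPM of the family.

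Levels spread widely among the monocyte/macrophage-like clusters. In the control library the sum of the family was highest in the cluster led by *Ccl8*, *Gas6* and *Lyve1* (562 CPM), in that led by *Chil3*, *Vcan* and *Gm9733* (477), and in that led by *Vcan*, *Ly6c2* and *C3* (455), whose further leading genes included *Gbp2* and *Cxcl10*. The cluster led by *Ace*, *Ldlrad3* and *Chil3* followed at 299, those led by *Pf4*, *Itga9* and *Ms4a7* and by *Havcr2*, *Hes1* and *Thbs1* had 127 and 108, and that led by *Gpnmb*, *Mmp13* and *Bhlhe41* had 58.0. The NK cell-depleted library gave 359, 356, 323, 292, 78.7, 72.1 and 25.5 CPM for the same clusters. In 7 of 7 the control was the higher library, and 6 of the 7 ratios had intervals above 1. They ran from 1.34 in the *Chil3* cluster, with a lower bound of 1.19, to 2.27 (1.58 to 3.33) in the *Gpnmb* cluster. The exception was the *Ace* cluster, with a ratio of 1.02 (0.848 to 1.23).

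**Figure D2:**
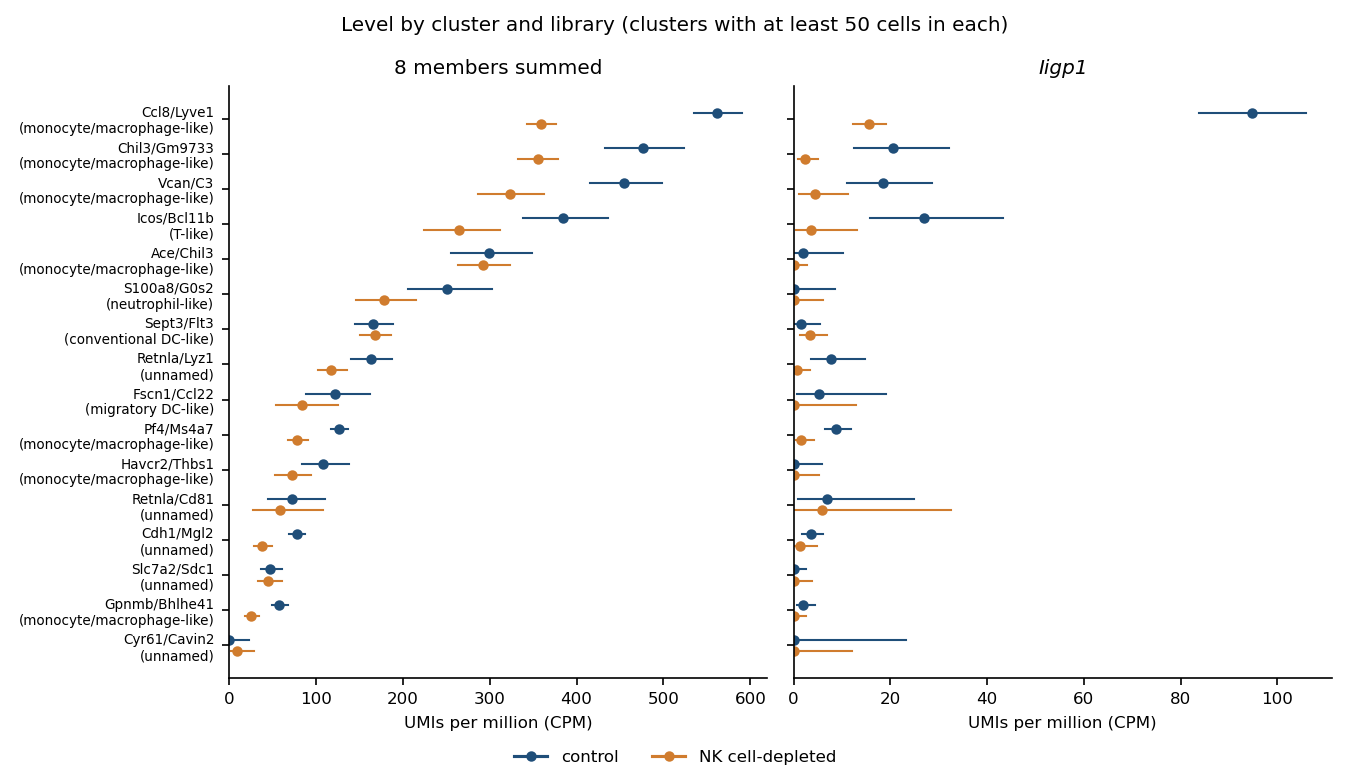
Level (CPM) of the 8 members summed (left) and of *Iigp1* (right) in each cluster with at least 50 cells in both libraries, each named by a pair of its leading genes, with 95% counting intervals. In the 7 monocyte/macrophage-like clusters the control level runs from 58.0 to 562 and the NK cell-depleted level from 25.5 to 359.

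The pooled class gave another picture, and its clusters had other shares in the libraries. The sum of the family was 3606 UMIs (259 CPM) in control and 3834 UMIs (257 CPM) in NK cell-depleted monocyte/macrophage-like cells, for a ratio of 1.01 (0.963 to 1.06). The low-level *Pf4* and *Gpnmb* clusters made up 28.7% and 25.9% of the class in the control but 12.8% and 13.8% after NK cell depletion. The high-level *Ccl8* and *Chil3* clusters made up 16.4% and 6.25% in the control, against 27.2% and 17.8% after NK cell depletion. Both views are therefore given gene by gene. A gene was called higher or lower where it had at least 20 UMIs over both libraries, was at least 25% higher in one library than in the other, and had a counting interval clear of 1.

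In the pooled class, 3 of the 7 members with enough UMIs were called higher in the control library and 0 lower. Among all 11432 genes with enough UMIs, 12.0% were called higher and 11.2% lower. The members' median log2 ratio, control over NK cell-depleted, was 0.47, against -0.01 over all genes. The 3 were *Iigp1*, *Gm4951* and *Igtp*.

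The effectors *Iigp1* and *Gm4951* were the members with the largest ratios. *Iigp1* had 368 UMIs (26.4 CPM, 23.8 to 29.3) in control and 97 UMIs (6.51 CPM, 5.28 to 7.94) in NK cell-depleted cells, and was 4.07-fold higher in the control (3.24 to 5.14). That placed it at percentile 99.7 of all genes with enough UMIs. It stayed called under 12 of 12 other ways of processing, with log2 ratios from 1.70 to 2.62. *Gm4951* had 73 UMIs (5.25 CPM, 4.11 to 6.60) and 38 UMIs (2.55 CPM, 1.80 to 3.50), a ratio of 2.06 (1.37 to 3.13), which was no longer called after thinning, at 1.51 (0.686 to 3.43). *Tgtp2* had 39 and 27 UMIs and a ratio of 1.55 (0.924 to 2.63) that included 1. *Ifi47* went the other way in the pooled class, with 1413 UMIs (102 CPM, 96.3 to 107) in control and 1853 UMIs (124 CPM, 119 to 130) in NK cell-depleted cells. Its ratio of 0.817 (0.762 to 0.876) lay short of the 25% rule, and it was called lower in 3 of 12 other settings and higher in 1.

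Of the regulators, *Igtp* alone was called. *Igtp* had 579 UMIs (41.6 CPM, 38.3 to 45.1) in control and 448 UMIs (30.0 CPM, 27.3 to 33.0) in NK cell-depleted cells, for a ratio of 1.38 (1.22 to 1.57). It was called in 12 of 12 other settings. *Irgm1* had 762 UMIs (54.8 CPM, 50.9 to 58.8) and 952 UMIs (63.8 CPM, 59.9 to 68.0), a ratio of 0.858 (0.779 to 0.944). *Irgm2* had 371 UMIs (26.7 CPM) and 418 UMIs (28.0 CPM), a ratio of 0.951 (0.825 to 1.10). The 3 regulator genes thus gave a median log2 ratio of -0.07, and the 4 effector genes with enough UMIs gave 0.83.

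With every cluster given the same weight in both libraries, the ratios of all 7 members lay above 1. Then 5 of 7 were called higher and 0 lower, where 7.82% of all genes were called higher and 8.85% lower. *Iigp1* stood at 6.15 (4.65 to 8.11), *Gm4951* at 3.12 (1.95 to 4.97), *Tgtp2* at 2.17 (1.19 to 3.96), and *Igtp* at 1.74 (1.49 to 2.03). *Ifi47*, with a log2 ratio of 0.33, just met the rule. *Irgm1*, with a log2 ratio of 0.26 and a ratio interval of 1.06 to 1.36, was above 1 but short of the rule, and the interval of *Irgm2*, at 1.17 (0.978 to 1.40), included 1. The directions of *Irgm1*, *Irgm2* and *Ifi47* thus turned with the weighting of clusters, while those of *Iigp1*, *Gm4951*, *Tgtp2* and *Igtp* did not.

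**Figure D3:**
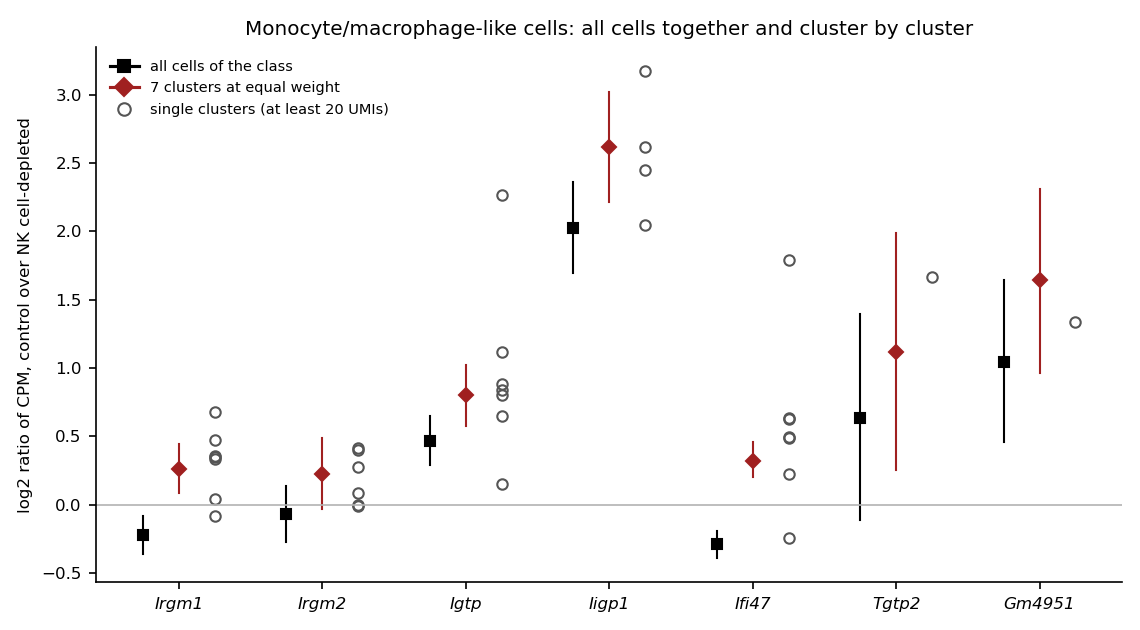
Control over NK cell-depleted ratio (log2 axis) of each member in the pooled monocyte/macrophage-like class, with all clusters at equal weight (both with 95% counting intervals), and in single clusters (open circles). *Irgm1*, *Irgm2* and *Ifi47* lie below 1 in the pooled class and above 1 at equal weight, and *Iigp1* lies farthest above 1 in both.

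The *Ccl8* cluster (442 control and 725 NK cell-depleted cells) held 278 of the 368 control UMIs of *Iigp1* in the class. There 6 of 7 members were called higher in the control, where 8.57% of 9761 genes were. *Iigp1* had 278 UMIs (94.7 CPM) against 83 UMIs (15.5 CPM), a ratio of 6.13 (4.78 to 7.92). *Gm4951* had 51 against 37 UMIs in fewer control cells, 17.4 and 6.89 CPM, a ratio of 2.52 (1.62 to 3.96). *Tgtp2* had 26 and 15 UMIs and a ratio of 3.17 (1.62 to 6.44). The regulators were higher too, *Igtp* by 2.17-fold (1.78 to 2.64; 78.0 against 35.9 CPM), *Irgm2* by 1.33-fold (1.07 to 1.65) and *Irgm1* by 1.26-fold (1.09 to 1.45). *Ifi47*, at 202 and 172 CPM, had a ratio of 1.17 (1.06 to 1.30) that did not reach the rule. At resolution 2 the leading genes of this cluster were spread over several clusters. That led by *Ccl8*, *Gas6* and *Cbr2*, with *Iigp1* among its leading genes, held 227 control and 209 NK cell-depleted cells. That led by *Spon1*, *Ly6a* and *Cfb* held 118 and 377, and that led by *Cd209f*, *Lyve1* and *Gas6* held 115 and 166. The ratios above hold any such shift in makeup as well.

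The other clusters differed in how many members were called higher in the control. In the *Pf4* cluster it was 4 of 5 members, beside 6.14% of all genes. In the *Vcan*, *Ly6c2* and *C3* cluster it was 3 of 5 beside 6.90%, in the *Chil3* cluster 3 of 5 beside 6.49%, and in the *Gpnmb* cluster 2 of 4 beside 9.51%. No member was called in the *Ace* cluster (0 of 4, 3.51% of all genes) or the *Havcr2* cluster (0 of 3, 5.77%), and no member was called lower in any of the 7. Of all genes, 9.03% in the *Ccl8*, 10.2% in the *Pf4*, 8.12% in the *Gpnmb*, 8.48% in the *Vcan*, 9.71% in the *Chil3*, 6.01% in the *Ace* and 7.23% in the *Havcr2* cluster were called lower. *Iigp1* was called in each of the 4 clusters with enough UMIs, including the *Chil3* cluster (19 against 6 UMIs, ratio 9.01, 3.46 to 27.6) and the *Pf4* cluster (46 against 4 UMIs, ratio 5.46, 2.00 to 20.9). *Igtp* was above 1 in 7 of 7 clusters and called in 5. *Ifi47* was above 1 in 6 of 7 and called in 4, as in the *Chil3* cluster with 261 and 184 CPM and a ratio of 1.41 (1.21 to 1.65). Its ratio in the *Ace* cluster was 0.842 (0.637 to 1.10). *Irgm1* was above 1 in 6 of 7, with intervals above 1 in 2.

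The markers left several clusters of myeloid cells unnamed, and their ratios ranged widely. The cluster led by *Cdh1*, *Spint1* and *Mgl2*, whose nearest class by markers was conventional DC, had sums of 78.1 and 38.0 CPM, a ratio of 2.06 (1.54 to 2.79). *Irgm2* (3.18, upper bound 10.4), *Igtp* (2.38) and *Irgm1* (2.36, 1.35 to 4.41) were called there, 3 of 4 members beside 7.02% of all genes. The cluster led by *Retnla*, *Il6* and *Lyz1*, nearest to conventional DC by few markers, had 163 and 118 CPM, a ratio of 1.39 (1.13 to 1.70), and *Irgm1* alone was called (1.70, 1.16 to 2.51; 1 of 4 beside 6.86%). Both of these clusters also held macrophage markers. In control and NK cell-depleted cells, *C1qa* stood at 751 and 869 CPM in the *Cdh1* cluster and at 451 and 571 in the *Il6* cluster. In conventional DC-like cells it stood at 6.03 and 16.9. The DC gene *Flt3* stood at 11.8 and 41.3 CPM in the *Cdh1* cluster and at 0 in the *Il6* cluster, against 172 and 213 in conventional DC-like cells. Next came unnamed clusters nearest to the monocyte/macrophage class, and the intervals of their sums included 1. The cluster with *Slc7a2* and *Sdc1* among its leading genes had 47.8 and 45.5 CPM, a ratio of 1.05 (0.710 to 1.57), and 0 of 3 members were called beside 5.99% of all genes. The shallow cluster led by *Retnla*, *Lyz1* and *Cd81* had 21 and 10 UMIs of the family, a ratio of 1.24 (0.558 to 2.94), with too few UMIs of any single member. A small unnamed cluster led by *Gm5483*, *Hcar2* and *Cxcl3* (48 control and 33 NK cell-depleted cells) was nearest to neutrophils by markers. It had 3 and 0 UMIs of the family, too few for a ratio.

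*Iigp1* was carried by a minority of cells. In the pooled class, 147 of 2690 control cells (5.46%, 4.64 to 6.39, exact binomial interval) and 59 of 2667 NK cell-depleted cells (2.21%, 1.69 to 2.84) held a UMI of it, and 3.19% and 0.805% after thinning. No cell of the background cluster did, among 61 and 71. In the *Ccl8* cluster of the control, 341 cells (77.1%) had no UMI of *Iigp1*, 38 had 1, and 63 (14.3%) had at least 2 and held 240 of the 278 UMIs. With NK cells depleted, 676 cells (93.2%) had none, 34 had 1, and 15 (2.07%) had at least 2, with 49 UMIs in all. The highest single cell of the class had 14 UMIs in the control and 7 after NK cell depletion, and the top 5 cells held 15.2% and 24.7% of all *Iigp1* UMIs.

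In the *Ccl8* cluster the sum of the other members was higher in cells with more *Iigp1*, though not gene by gene. In the control the other 7 genes summed to 386 CPM in cells with no *Iigp1* UMI, 548 in cells with 1 and 773 in cells with at least 2, whose median depths were 6067, 6878 and 8333 UMIs. After NK cell depletion the sums were 336, 414 and 472 CPM. In control cells with at least 2 *Iigp1* UMIs, *Irgm1* stood at 189 CPM against 96.4 in cells with none, *Igtp* at 135 against 62.7, and *Ifi47* at 295 against 172. Control cells with 1 UMI had less *Irgm1* (86.1 CPM) than those with none. After NK cell depletion the 15 cells with at least 2 had 142 CPM of *Irgm1* against 87.2 in cells with none, 67.4 against 35.2 of *Igtp*, but 142 against 173 of *Ifi47*. In the control, *Gm4951* stood at 54.7 CPM in cells with at least 2 and 4.61 in cells with none. The IFN-γ-induced chemokine *Cxcl9* had 39.0 against 2.31 CPM (20 and 5 UMIs) and *Gbp2* 254 against 84.4. Control cells with 1 *Iigp1* UMI had no *Cxcl9* UMI and 74.4 CPM of *Gbp2*. After NK cell depletion, cells with at least 2 had no *Cxcl9* UMI, against 2.43 CPM in cells with none, and 180 against 40.7 CPM of *Gbp2*. These cells were grouped by the measured gene and by depth along with it, so the values are a description. After thinning, at least 2 members were found in 23.8% of control and 13.2% of NK cell-depleted cells of this cluster.

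Markers of NK cells moved with the libraries inside the monocyte/macrophage-like class. The 10 NK markers summed to 243 UMIs (17.5 CPM) in the control, where none was at 0, and to 16 UMIs (1.07 CPM) in the NK cell-depleted library, where 8 were at 0. NK-like cells themselves held no UMI of *Iigp1* or *Gm4951*. Their *Igtp* level of 31.2 CPM did not differ beyond counting error from the 41.6 of control monocyte/macrophage-like cells (class over NK-like 1.34, 0.976 to 1.87). Whether RNA of NK cells in the class shaped the ratios was not tested. With the expected free RNA subtracted, the ratio of *Iigp1* was 3.97 (3.15 to 5.00), that of *Gm4951* 2.01 (1.34 to 3.01) and that of *Igtp* 1.34 (1.17 to 1.52). Without cells that held markers of 2 unlike classes, they were 3.26 (2.57 to 4.17), 2.14 (1.35 to 3.46) and 1.35 (1.18 to 1.55). The gene for IFN-γ, *Ifng*, had 366 UMIs in NK-like cells of the control (271 CPM), 32 and 14 UMIs in T-like cells of the control and NK cell-depleted libraries (50.8 and 25.3 CPM), and 3 and 1 in monocyte/macrophage-like cells. Its part in the differences was not tested.

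T-like cells had the highest sum of the family among the classes, and the member called there was not called in the pooled monocyte/macrophage-like class. The sum was 385 CPM in the control and 265 CPM after NK cell depletion, a ratio of 1.45 (1.18 to 1.79). Of 4 members with enough UMIs, 1 was called higher, where 7.29% of all genes were. It was *Irgm1*, with 48 UMIs (76.3 CPM) against 14 UMIs (25.3 CPM), a ratio of 3.02 (1.64 to 5.93). The call was lost in cells with at least 2000 UMIs and at most 5% mitochondrial UMIs, at 1.36 (0.494 to 4.08). After thinning, 12.1% of control and 4.90% of NK cell-depleted T-like cells held an *Irgm1* UMI. *Igtp* had a ratio of 1.26 (0.861 to 1.85) and *Ifi47*, at 106 and 103 CPM, one of 1.04. The makeup of the class differed too. At a finer clustering, cells led by *Cxcr6*, *Ctla4* and *Icos* were 75.4% of the T-like cells in the control and 48.4% after NK cell depletion, and those led by *Lef1*, *Tcf7* and *Bcl11b* 24.2% and 51.6%. In the former the family summed to 411 and 246 CPM (ratio 1.67, 1.28 to 2.21), and *Irgm1* had 44 and 9 UMIs (2.95, 1.42 to 6.88). In the latter both sums were 288 CPM, and *Irgm1* had 4 and 5 UMIs, too few for the rule. With equal weight for the pair, *Irgm1* had a ratio of 2.40 (1.29 to 4.49). *Iigp1* had 17 UMIs in 8 control cells and 2 UMIs in 1 NK cell-depleted cell, a ratio of 7.49 (1.78 to 66.8) from fewer UMIs than the rule asks for.

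In neutrophil-like cells *Igtp* was the member called. It had 41 UMIs (95.3 CPM) in control and 32 UMIs (52.3 CPM) in NK cell-depleted cells, with a ratio of 1.82 (1.12 to 2.99), 1 of 4 members beside 6.21% of all genes. The call was lost when each cell was named from its own markers, at a log2 ratio of 0.33 (ratio interval 0.608 to 2.51), and without the 5 cells richest in *Igtp*, at 1.83 (0.998 to 3.41). *Irgm1*, at 67.4 and 45.7 CPM, had a ratio of 1.47 (0.846 to 2.57). The median depth of these cells was only 1158 and 1299 UMIs. In conventional DC-like cells 0 of 4 members were called higher, beside 7.22% of all genes, but single calls came and went with the processing. *Irgm1* had a ratio of 0.838 (0.619 to 1.13), *Igtp* 1.56 (0.947 to 2.56) and *Ifi47* 0.998 (0.766 to 1.29), and the sum 0.987 (0.830 to 1.17). *Igtp* was called higher in the stricter cells (1.80, 1.01 to 3.23) and with each cell named from its own markers (1.76, 1.09 to 2.93). With no upper limits on UMIs and genes, *Irgm2* was called higher (1.89, 1.11 to 3.34) and *Irgm1* lower (0.779, 0.621 to 0.977). The class also changed in makeup. Cells led by *Siglech*, *Xcr1* and *Sept3* made up 67.7% of it in the control and 50.5% after NK cell depletion, and those led by *Cd209a*, *Wnt11* and *Ddr1* 30.6% and 49.5%. In the former the family summed to 140 and 108 CPM (ratio 1.30, 0.987 to 1.71) and *Igtp* had 20 and 9 UMIs (2.54, 1.10 to 6.33). In the latter the sums were 217 and 220 CPM, and the interval of *Igtp* included 1 (1.35, 0.666 to 2.65). At equal weight of the pair *Igtp* was called higher, at 1.69 (1.05 to 2.73). The effectors *Iigp1* and *Gm4951* had too few UMIs there for a ratio, so a difference in them was not detectable at this depth.

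Over all cells the ratio of the sum was 0.993 (0.954 to 1.03). *Iigp1* (3.55, 2.87 to 4.42), *Gm4951* (1.92, 1.30 to 2.90) and *Igtp* (1.33, 1.19 to 1.47) were called higher, 3 of 7 members beside 14.1% of all genes. These values hold the loss of NK-like cells and the shift among macrophage clusters as well as any difference within a cluster.

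Partners of the family in the same pathway were read in monocyte/macrophage-like cells, where 12.0% of all genes were called higher, 11.2% were called lower, and the median log2 ratio of all genes was -0.01. GBPs, which act beside the effectors on the vacuole, were called higher in the control for 7 of 9 genes with enough UMIs and lower for none, with a median log2 ratio of 0.99. They ran from *Gbp3* (696 and 633 UMIs, ratio 1.18, 1.06 to 1.31) to *Gbp4* (333 and 126 UMIs, ratio 2.83, 2.30 to 3.50). Within clusters, 9 of 9 were called higher in the *Ccl8*, 7 of 7 in the *Vcan*, 5 of 7 in the *Chil3*, 3 of 7 in the *Pf4*, 3 of 6 in the *Gpnmb*, and 0 of 4 in the *Ace* and the *Havcr2* cluster. Among other genes of the IRG family, 2 of 7 were called higher and none lower, with a median of 0.50. These were *Gm12185* (20 and 6 UMIs, ratio 3.57, 1.38 to 10.9), which shares transcript ends with *Tgtp1* and *Tgtp2*, and *Irgq* (113 and 62 UMIs, ratio 1.95, 1.42 to 2.71). The autophagy conjugation genes, whose products are needed to place the effectors on vacuoles, gave 0 called higher and 1 lower of 11, with a median of 0.01. The gene called lower was *Gabarapl1* (468 and 652 UMIs, ratio 0.769), and *Atg10* had the highest log2 ratio of the list, 0.24. Within clusters 0 to 2 of them were called higher.

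IFN-γ signaling genes had few calls in the pooled class and more in some of its clusters. Of 13 with enough UMIs in the pooled class, 2 were called higher and 1 lower, which is near the shares of all genes, and the median log2 ratio was 0.10. Within clusters, 8 of 13 were called higher in the *Vcan*, 7 of 13 in the *Chil3* and 6 of 13 in the *Ccl8* cluster, each with 1 lower, and the medians were 0.61, 0.50 and 0.30. In the *Havcr2* cluster 4 of 11 were called higher, in the *Pf4* cluster 3 of 12, in the *Gpnmb* cluster 3 of 12 with 1 lower, and in the *Ace* cluster 0 of 11 with 1 lower. *Cxcl9* had 281 and 50 UMIs and a ratio of 6.02 (4.44 to 8.31). *Cd274*, encoding the checkpoint ligand PD-L1, stood at 1.58. *Ifngr1*, a chain of the IFN-γ receptor, was lower in the control (3825 and 5527 UMIs, ratio 0.742, 0.711 to 0.773). In the pooled class, of 17 type I interferon antiviral genes, 6 were called higher and 2 lower, with a median of 0.11, from *Oasl2* (2249 and 3188 UMIs, ratio 0.756) to *Ifit3* (767 and 500 UMIs, ratio 1.64, 1.47 to 1.84). Within clusters more of them were called higher. These were 14 of 17 in the *Ccl8* (median log2 ratio 0.60), 12 of 16 in the *Pf4* (0.94), 12 of 14 in the *Gpnmb* (1.21), 10 of 17 in the *Chil3*, 7 of 17 in the *Vcan* and 5 of 10 in the *Havcr2* cluster, with none lower, and 3 of 15 in the *Ace* cluster, with 1 lower. The shares of all genes called higher in these clusters are given above, and ran from 3.51% to 9.51%.

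**Figure D4:**
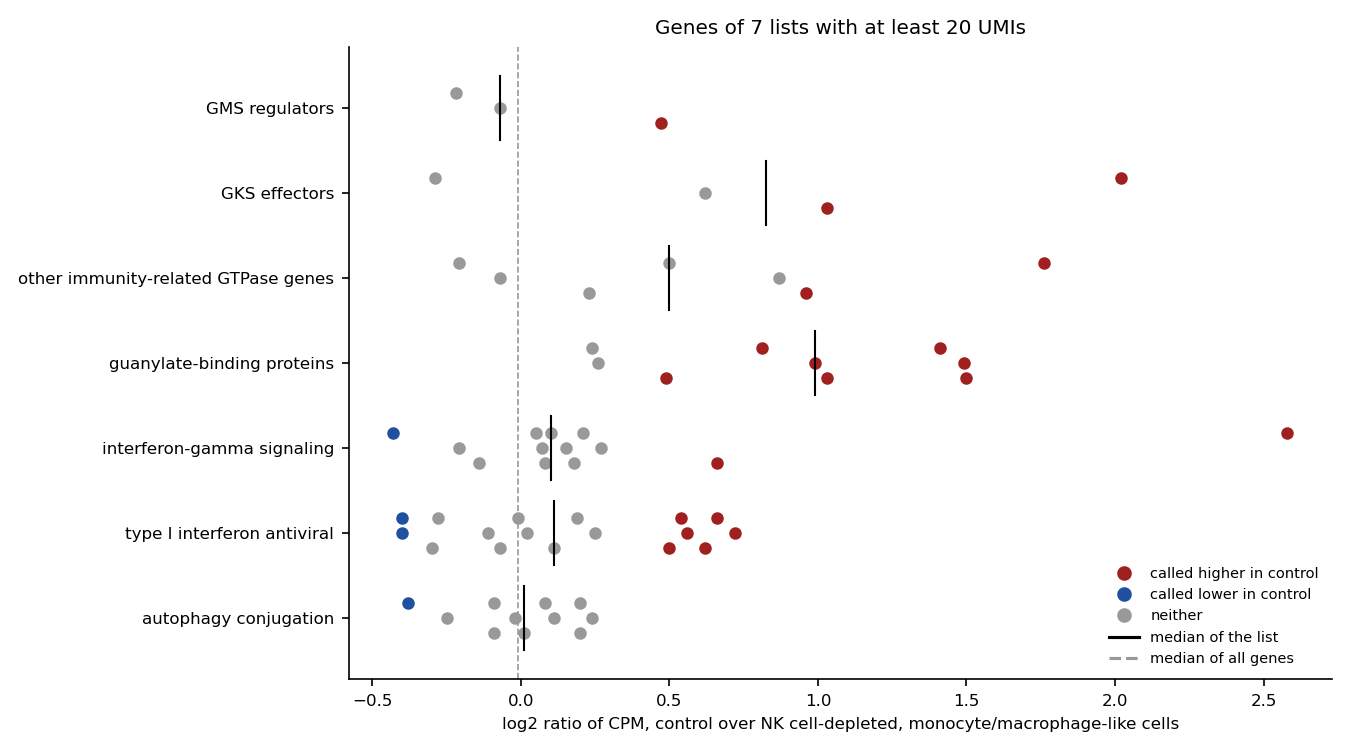
Control over NK cell-depleted log2 ratios of the genes on each list in the pooled monocyte/macrophage-like class, 1 point per gene with enough UMIs, with the list's median. The median is 0.99 for GBPs, 0.83 for GKS effectors, -0.07 for GMS regulators and 0.01 for autophagy conjugation genes.

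Across 35 sums of cells, 1 for each cluster and library with at least 50 cells, some members had more alike patterns than others, without sharp sets. The points share 2 libraries and differ in depth, so Pearson's r on log2(CPM + 1) is given as a description. *Irgm2* and *Igtp* had an r of 0.90, *Irgm1* and *Igtp* 0.82, *Igtp* and *Ifi47* 0.80, and *Irgm1* and *Ifi47* 0.76. *Iigp1* was closest to *Gm4951*, at 0.75, and farther from *Tgtp2* (0.59), *Ifi47* (0.52), *Irgm1* (0.50), *Igtp* (0.49) and *Irgm2* (0.35). *Iigp1* and *Gm4951* both lacked UMIs in some of the same sums, and such shared zeros enter their r. Among 5872 other genes, the pattern of the summed family was most like that of *Dtx3l* (0.96), followed by *Ddx58*, which encodes the RNA sensor RIG-I, and *Sp100* (0.92 each), *Xaf1* (0.91), and *Adar*, *Psme2b*, *Trim30a* and *Slfn8* (0.90 each). *Oas3* (0.89) and *Ogfr* (0.87) were the next.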

How the data were processed

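Leukocytes were sorted from pooled tumors and processed with the 10x Genomics 3′ v3 kit, with 11 cDNA and 14 index cycles. The authors deposited UMI counts per gene and cell, and per the labels reads were aligned to mm10 with Cell Ranger. The matrix headers name Cell Ranger 3.0.2, a version other than the one in the study's methods, and the strand setting of counting is not given in the sources used here. A deposited table of log2 normalized values was not used.

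Cells outside 500 to 15000 UMIs or 200 to 4000 genes, or with over 10% mitochondrial UMIs, were left out. Counts were scaled per cell, logged and reduced to 15 principal components of 2000 variable genes, leaving out a chosen set of interferon-induced genes. The cells were then clustered (Leiden, resolution 1) with leidenalg, and scanpy 1.11.5 was used for doublet calling. A cluster was named where at least 3 markers of 1 class led it. The naming thresholds and the interferon genes left out of clustering were set after the files were seen. The members, marker lists and gene lists were chosen with earlier results of these data known. Scrublet called 0 and 3 cells, so it had not worked, and 309 and 270 cells with markers of 2 unlike classes were left out only as an alternative.

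UMIs were summed per cluster or class and library and scaled to 1000000. Intervals of sums are exact Poisson, of ratios exact conditional binomial and of shares Clopper-Pearson, all at 95%, and cover counting error only. Log2 ratios carry 0.5 added UMIs. Genes on the lists are named by the largest and smallest log2 ratio, up to 4 per list, and like patterns by the 10 highest r. Values of cells grouped by *Iigp1*, and the split of T-like and conventional DC-like cells by the clusters of resolution 2, were chosen after the data were seen. Alternatives changed the scaling, cell filter, depth, clustering, naming, doublets, cluster weights, top cells and free RNA. Scripts were tested on simulated data. *Gm12250*, *Gm12187*, *Gbp11* and *Mx2* were not analysed here. Python 3.11.15, numpy 2.4.6, scipy 1.17.1, pandas 2.3.3, igraph 0.11.9 and leidenalg 0.10.2 were used.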

Additional observations from a re-analysis of the deposited data

Results flagged for a closer look

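*Irgm1* differed in direction between cell classes. Its log2 ratio, control over NK cell-depleted, was 1.56 in T-like cells and -0.22 in the pooled monocyte/macrophage-like class, and the counting intervals lay on opposite sides of 1. The difference between the classes was not tested, since each group had 1 library. Within the macrophage clusters *Irgm1* was above 1 in 6 of 7, and at equal cluster weight its log2 ratio was 0.26.

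Cells with more UMIs or genes than the upper limits allow were left out of the main values and held UMIs of the family. The 8 members summed to 46.3 CPM (41.0 to 52.1) in 212 such cells of the control and to 49.5 CPM (45.2 to 54.2) in 353 of the NK cell-depleted library. Among those with a UMI of the leukocyte gene *Ptprc*, 118 and 148 cells, the sums were 89.5 and 118 CPM.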

How the results depend on the processing

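No paired analysis was possible because each group had 1 library and no result came from a test. In the pooled monocyte/macrophage-like class, the count of members lower in the control was 1 (*Ifi47*), in place of 0, with no upper limits on UMIs and genes, with each cell named from its own markers, and with free RNA subtracted. The count of members higher in the control was 5, in place of 3, when each cluster had equal weight. The median log2 ratio of the members, 0.47, became 0.80 at equal cluster weight and 0.21 after thinning to 2000 UMIs, where 6 members had enough UMIs. In the other settings the median was 0.40 to 0.48. In every setting but equal weight, 2 to 4 members were called higher, and thinning left *Gm4951* uncalled. Of 84 alternative log2 ratios of single members in this class, 79 moved by less than their counting interval, and the 5 that moved were at equal cluster weight. These were *Irgm1* at 0.26, *Irgm2* at 0.23, *Igtp* at 0.80, *Iigp1* at 2.62 and *Ifi47* at 0.33. In T-like cells 1 of 48 moved, *Irgm1* at 0.40 in the stricter cells. In conventional DC-like cells 2 of 48 moved, *Igtp* at 1.75 and *Ifi47* at -0.46 after thinning, and in neutrophil-like cells 0 of 36 did. The cause of these shifts was not tested, except that equal weighting removes the difference in cluster shares by construction. Depth limits the statements on *Tgtp1*, *Tgtp2* and *Gm4951*, and on every member in the small classes.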
